A study of Homo sapiens with 8 samples.

Results

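A group of 8 genes gave a strong hybridization signal in one of 2 prostate cancer cell lines and a signal near the floor of the array in the other. RGS2, UCP2 and TIMP1 were high in 22Rv1 and low in LNCaP, and MME, ATP11A, PEG3, ACKR3 and GCG were high in LNCaP and low in 22Rv1. They were 8 of the 19775 genes that had a probe set with a single gene symbol, and they were chosen by their untreated log2 signals, the differences being the widest of all genes toward each line. The members were all 18 probe sets that carry 1 of these symbols and no other. Of these, 15 reached a log2 signal of 4, taken here as the limit of detection, on at least 1 array, and 3 were under 4 on all 8 arrays. Where a gene had several probe sets, the one with the highest mean signal over all arrays was taken as leading.

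LNCaP is an androgen-sensitive line from a lymph node metastasis of prostate carcinoma, and 22Rv1 is a line from a relapsed human prostate carcinoma xenograft. Total RNA of each line was hybridized to 4 Affymetrix U133 Plus 2.0 arrays, 1 for each treatment: untreated cells, cells kept for 4 hours in 10 mM caffeine, and cells that after this caffeine step were moved for another 4 hours to 2 µg/ml actinomycin D, either together with 10 mM caffeine or alone. Caffeine was used to block nonsense-mediated mRNA decay and actinomycin D to block RNA synthesis, so all 6 treated arrays share the first caffeine step and no array had actinomycin D without it. With 1 array for each line and treatment there were no replicates, each line was 1 culture, and the spread in the tests below is the spread over treatments. Values are log2 signals, a difference of 1 being a doubling of signal, and after quantile normalization each array had a median of 2.75, with 38.4% of its probe sets at 4 or more.

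The lines kept the markers of luminal prostate epithelium, since 8 of 8 (KLK2, KLK3, KLK4, TMPRSS2, FOLH1, HOXB13, KRT8 and KRT18) were at 4 or more on all arrays of both lines. Markers of endothelium (4 genes) and leukocytes (3 genes) were under 4 on all arrays, as were those of basal epithelium (3 genes) but for KRT15 at 4.13 on the 22Rv1 caffeine array. Of 5 fibroblast markers, 3 in 22Rv1 (COL1A1, DCN and LUM) and 1 in LNCaP (COL1A1) were at 4 or more on all 4 arrays, while COL1A2 and COL3A1 were under 4 in both lines. The 18S ribosomal RNA probe sets averaged 11.71 on the LNCaP array with actinomycin D and caffeine against 4.09 to 7.08 on the other arrays, so this array stood apart.

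The genes act in different places of the cell. RGS2 shortens signalling from receptors coupled to the G protein Gq by speeding up GTP hydrolysis on its alpha subunit, and ACKR3 is an atypical chemokine receptor that binds CXCL12 and CXCL11 and removes them without classical G protein signalling. GCG encodes proglucagon, which endocrine cells of the pancreas and gut cut into glucagon and the glucagon-like peptides. TIMP1 is a secreted inhibitor of matrix metalloproteases, and MME (neprilysin, also known as CD10) is a peptidase of the cell surface. UCP2 is a carrier of the inner mitochondrial membrane, ATP11A is a flippase that moves phospholipids to the inner leaflet of the plasma membrane, and PEG3 is an imprinted zinc finger gene that is transcribed from the paternal allele.

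Promoter windows, 250 bases before to 50 bases after the annotated start, were taken from RefSeq on GRCh38.p14 for 6 of the 8 genes, in 10 windows. CG dinucleotides, at which promoters of silent genes can be methylated, are in capitals in the 4 genes with a single window, which show the range from many CGs to almost none.
RGS2 (chr1:192808789-192809088, plus strand): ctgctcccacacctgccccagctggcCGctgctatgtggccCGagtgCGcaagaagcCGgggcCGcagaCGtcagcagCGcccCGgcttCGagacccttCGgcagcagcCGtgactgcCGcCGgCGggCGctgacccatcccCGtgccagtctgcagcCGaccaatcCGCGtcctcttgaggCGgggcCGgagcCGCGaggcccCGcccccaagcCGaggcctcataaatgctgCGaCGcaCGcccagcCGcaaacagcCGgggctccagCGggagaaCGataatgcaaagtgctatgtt
TIMP1 (chrX:47582186-47582485, plus strand): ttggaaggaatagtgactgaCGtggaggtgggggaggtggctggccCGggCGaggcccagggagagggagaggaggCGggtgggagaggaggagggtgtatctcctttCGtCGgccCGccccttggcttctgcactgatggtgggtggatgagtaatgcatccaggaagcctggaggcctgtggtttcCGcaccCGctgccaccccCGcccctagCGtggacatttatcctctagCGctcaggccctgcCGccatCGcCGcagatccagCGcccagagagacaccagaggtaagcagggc
ATP11A (chr13:112689788-112690087, plus strand): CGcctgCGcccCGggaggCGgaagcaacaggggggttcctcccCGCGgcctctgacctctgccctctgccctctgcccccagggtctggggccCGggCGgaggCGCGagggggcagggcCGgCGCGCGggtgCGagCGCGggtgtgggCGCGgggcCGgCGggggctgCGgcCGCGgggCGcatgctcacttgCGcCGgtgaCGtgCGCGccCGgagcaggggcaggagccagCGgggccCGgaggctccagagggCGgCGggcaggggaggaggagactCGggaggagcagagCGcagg
GCG (chr2:162152198-162152497, minus strand): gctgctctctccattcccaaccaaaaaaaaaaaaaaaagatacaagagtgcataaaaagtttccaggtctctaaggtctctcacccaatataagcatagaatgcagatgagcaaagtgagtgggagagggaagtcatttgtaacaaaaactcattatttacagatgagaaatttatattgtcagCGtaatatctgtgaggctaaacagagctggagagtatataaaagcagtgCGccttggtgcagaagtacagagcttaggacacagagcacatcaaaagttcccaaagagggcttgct
RGS2 had 32 CGs in its window, ATP11A had 37, TIMP1 had 16 and GCG had 2, against a median of 14 and quartiles of 4 and 28 over 35116 windows of all genes. The 2 windows of UCP2 held 24 and 32 CGs, and the 4 windows of MME held from 19 to 30. Genes low in LNCaP and genes low in 22Rv1 were both among those with many CGs, and GCG, low in 22Rv1, was at the other end. The letters TGACG, a cyclic AMP response half-site that itself contains a CG, were found on either strand in the windows of RGS2, TIMP1 and ATP11A and in 1 of the 4 of MME, and in 24.6% of all windows. TATAAA, searched on both strands, had 2 matches in the window of GCG and none in the other 9 member windows, and it was in 11.5% of all windows. PEG3 and ACKR3 are named only. DNA methylation and binding of factors were not measured, and a match is a string of letters only.

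The untreated differences chose the genes and are given as a description. RGS2, UCP2 and TIMP1 held ranks 1 to 3 among genes lower in LNCaP, with LNCaP minus 22Rv1 differences of -11.26, -9.98 and -9.51. The next genes, just outside the choice, were KRT19 at -9.34, COXFA4L2 at -8.89, CRIP1 at -8.76 and GJA1 at -8.52. In the other direction MME, ATP11A, PEG3, ACKR3 and GCG held ranks 1 to 5 with differences of 9.02, 8.52, 8.24, 8.10 and 8.07. TNFRSF19 at 7.46, LOC102723847 at 7.45 and CDH26 at 7.25 came next. A signal under 4 gives only a bound, so with the low line set to 4 the untreated signal of RGS2 was at least 1052-fold higher in 22Rv1 and that of GCG at least 82.1-fold higher in LNCaP. The bounds of the others were 479-fold for UCP2, 227-fold for TIMP1, 217-fold for MME, 191-fold for PEG3, 123-fold for ATP11A and 82.9-fold for ACKR3. Under treatment the smallest bounds were 23.7-fold for PEG3, 77.0-fold for MME, 80.1-fold for GCG, 80.2-fold for ATP11A, 88.7-fold for RGS2, 103-fold for ACKR3, 203-fold for UCP2 and 206-fold for TIMP1.

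**Figure D1:**
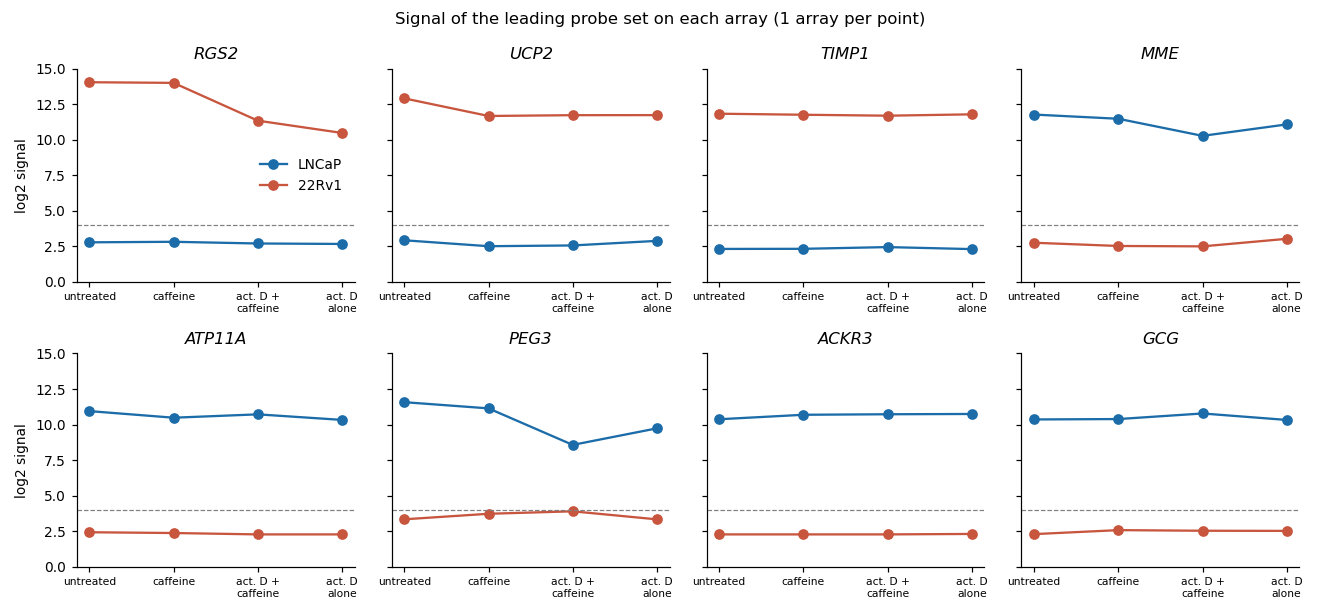
Log2 signal of the leading probe set of each of the 8 genes (vertical axis) on the untreated, caffeine, actinomycin D with caffeine and actinomycin D alone arrays (horizontal axis), with LNCaP in blue, 22Rv1 in red, 1 array per point and a dashed line at 4. In the low line no point reaches 4 (the highest is 3.90, PEG3), and in the high line no point is below 8.57 (PEG3), with the visible drops in RGS2 and PEG3 after actinomycin D.

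Among the signalling genes, RGS2 was the member whose high signal differed most between the caffeine and the actinomycin D arrays. In 22Rv1 it was at 14.04 untreated, 13.99 after caffeine, 11.33 after actinomycin D with caffeine and 10.47 after actinomycin D alone, and in LNCaP it was at 2.78, 2.81, 2.69 and 2.66 in the same order. The 2 arrays with actinomycin D were thus the low ones of 22Rv1, while the LNCaP arrays stayed within 0.15 of each other and the lines did not overlap. Over the 3 treated pairs the LNCaP minus 22Rv1 difference was -9.21 ± 0.66 (SE, limma, adjusted p = 0.00078). The genes were chosen for a wide untreated difference between these same lines. Their leading probe sets passed the filter on mean signal, used for this test, through the high line only. The p values of the members, here and below, are therefore a description and carry no weight as support. ACKR3 moved little. It was at 10.37, 10.69, 10.72 and 10.74 in LNCaP and between 2.27 and 2.30 in 22Rv1, and the difference over the treated pairs was 8.44 ± 0.16 (SE, limma, adjusted p = 0.000113). Its untreated value was the lowest of the 4 in LNCaP, by 0.31 to the caffeine array.

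Among the secreted products, TIMP1 varied least in its high line. In 22Rv1 it was at 11.82, 11.75, 11.68 and 11.78 and in LNCaP at 2.31, 2.32, 2.44 and 2.30, in the order untreated, caffeine, actinomycin D with caffeine, actinomycin D alone. Its 4 values lay within 0.14 of each other in either line, and the treated difference was -9.38 ± 0.16 (SE, limma, adjusted p = 0.000113). The fibroblast markers had a mean of 5.44 to 6.02 in 22Rv1 and 3.09 to 3.91 in LNCaP. LUM was at 9.42 to 10.21 in 22Rv1 and under 2.5 in LNCaP, and COL1A2 and COL3A1 were not above 2.76 in either line. COL1A1 was at 8.50, 8.39, 5.29 and 5.82 in LNCaP and at 5.86, 8.65, 8.49 and 7.96 in 22Rv1. It was thus higher in LNCaP in untreated cells and higher in 22Rv1 under treatment. The part of the fibroblast markers in the difference of TIMP1 was not tested. GCG was at 10.36, 10.39, 10.78 and 10.32 in LNCaP and at 2.29, 2.57, 2.53 and 2.52 in 22Rv1, a treated difference of 7.96 ± 0.18 (SE, limma, adjusted p = 0.000113). The 4 endocrine markers had a mean of 2.86 to 3.04 in LNCaP and 4.48 to 5.44 in 22Rv1. In LNCaP SYP reached 4.13 after caffeine and 4.08 after actinomycin D alone, and CHGA, INSM1 and SCG2 were under 4 on all arrays. In 22Rv1 SYP and SCG2 were at 4 or more on all arrays, CHGA on 3 of 4, and INSM1 was not above 2.34. Their part in the difference of GCG was not tested.

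MME, the surface peptidase, was at 11.76, 11.47, 10.27 and 11.07 in LNCaP and at 2.75, 2.52, 2.49 and 3.02 in 22Rv1. The lowest LNCaP value was on the array with actinomycin D and caffeine, the one with the high 18S signal, and the treated difference was 8.26 ± 0.27 (SE, limma, adjusted p = 0.000157). Of the membrane carriers, UCP2 was at 12.90 in untreated 22Rv1 and at 11.66, 11.72 and 11.72 on the treated arrays, so the untreated array stood above the other 3, which lay within 0.06 of each other. In LNCaP it stayed between 2.50 and 2.92, and the treated difference was -9.06 ± 0.17 (SE, limma, adjusted p = 0.000113). ATP11A was at 10.94, 10.48, 10.72 and 10.33 in LNCaP and between 2.27 and 2.42 in 22Rv1, with a treated difference of 8.20 ± 0.18 (SE, limma, adjusted p = 0.000113). PEG3 was the least even of the genes high in LNCaP, at 11.57 untreated, 11.14 after caffeine, 8.57 after actinomycin D with caffeine and 9.73 after actinomycin D alone. In 22Rv1 it was at 3.33, 3.72, 3.90 and 3.33, and the treated difference was 6.16 ± 0.53 (SE, limma, adjusted p = 0.00126).

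All 8 leading probe sets thus kept the direction of their line difference on the treated arrays. The genes were chosen on the untreated arrays, but the treated arrays took part in picking the leading probe set of genes with several, and each passed the filter on mean signal through its high line only, so a count of calls among them carries no weight. Of the 21396 probe sets tested, 24.3% were higher and 23.4% were lower in LNCaP at an adjusted p under 0.05, and the median size of the difference was 0.67. With no filter on low signals the adjusted p of RGS2 was 0.0635 and that of PEG3 was 0.0759, and the other 6 stayed under 0.05. Without the LNCaP and 22Rv1 arrays with actinomycin D and caffeine the adjusted p values of the 8 were between 0.00502 and 0.0106.

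The question of whether a treatment changed the difference was addressed for each gene against its untreated value. After caffeine the differences, in the order RGS2, UCP2, TIMP1, MME, ATP11A, PEG3, ACKR3 and GCG, were -11.18, -9.16, -9.43, 8.95, 8.11, 7.42, 8.41 and 7.81. None of the 8 leading probe sets changed by more than 1, where 10.0% of all detected probe sets narrowed and 4.37% widened by more than 1. The nearest were PEG3 and UCP2, each narrower by about 0.82. In PEG3 the LNCaP signal was lower by 0.44, and the 22Rv1 signal was under 4 on both arrays. In UCP2 the 22Rv1 signal was lower by 1.24, and the LNCaP signal was under 4 on both arrays. With signals under 4 set to 4, PEG3 was narrower by 0.44 and UCP2 by 1.24, so UCP2 was then past 1. The difference of ACKR3 was the only one of the 8 that was larger than in untreated cells, by 0.31. Of the other probe sets of these genes, ATP11A 213582_at narrowed by 1.81 and UCP2 208997_s_at by 1.67. PEG3 209243_s_at narrowed by 1.11, with signals under 4 in both lines untreated and after caffeine. None of the other probe sets widened by more than 1.

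After actinomycin D with caffeine the differences were -8.64 for RGS2, -9.16 for UCP2, -9.24 for TIMP1, 7.77 for MME, 8.44 for ATP11A, 4.67 for PEG3, 8.45 for ACKR3 and 8.25 for GCG. There were 3 narrower than untreated by more than 1, namely PEG3 by 3.57, RGS2 by 2.62 and MME by 1.24, and 0 were wider, where 16.2% of detected probe sets narrowed and 8.97% widened. After actinomycin D alone the differences were -7.81 for RGS2, -8.85 for UCP2, -9.48 for TIMP1, 8.05 for MME, 8.05 for ATP11A, 6.40 for PEG3, 8.44 for ACKR3 and 7.80 for GCG. Here RGS2 was narrower by 3.45, PEG3 by 1.84 and UCP2 by 1.14, with MME at 0.97, and 0 were wider, where 13.9% narrowed and 8.24% widened. The leading probe sets of RGS2 and PEG3 were therefore past 1 on both actinomycin D treatments, and those of TIMP1, ATP11A, ACKR3 and GCG on neither.

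The difference was smaller than in untreated cells in 7 of 8 genes after caffeine, 6 of 8 after actinomycin D with caffeine and 7 of 8 after actinomycin D alone. Since the genes were chosen for a large untreated difference, the same untreated arrays stand on both sides of these counts. The other 149 probe sets with an untreated difference over 6 were smaller in 65.1%, 60.4% and 57.0% in the same order, with a median change of -0.24, -0.28 and -0.22, and the members had medians of -0.17, -0.54 and -0.72. Over all detected probe sets the medians were -0.02, 0.03 and 0.02.

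**Figure D2:**
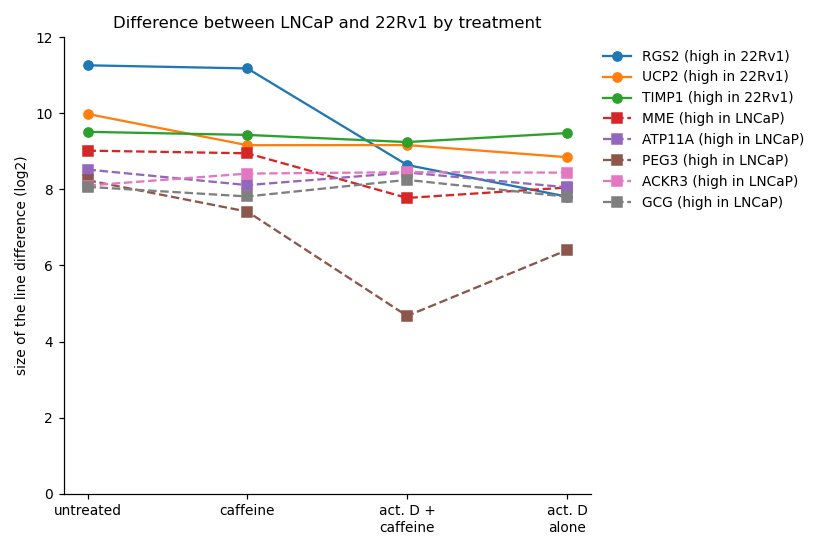
Size of the difference between LNCaP and 22Rv1 in log2 units (vertical axis) for the leading probe set of each gene by treatment (horizontal axis), circles and solid lines for genes high in 22Rv1 and squares and dashed lines for genes high in LNCaP, 1 pair of arrays per point. RGS2 drops from 11.26 to 7.81 and PEG3 from 8.24 to 4.67 at its lowest, and TIMP1, ACKR3 and GCG run nearly level.

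The change of the line difference with actinomycin D was tested in the 6 treated arrays as the line by actinomycin D term of a limma fit. For RGS2 the term was 2.96 ± 0.59 (SE), with an unadjusted p of 0.00539 and an adjusted p of 0.383, and it did not pass. The values for PEG3 were -1.88 ± 0.81 (SE, adjusted p = 0.717) and for MME -1.04 ± 0.64 (SE, adjusted p = 0.84), and neither passed. The sizes for the other 5 genes were 0.03 for ACKR3, 0.07 for TIMP1, 0.14 for ATP11A, 0.16 for UCP2 and 0.21 for GCG. No probe set passed, 0.00% of 21396, while 7.58% had an unadjusted p under 0.05. The adjusted p of RGS2 ranged from 0.0874 with all 8 arrays to 0.443 with a stricter filter on mean signal. The fit with all 8 arrays takes in the untreated arrays that chose the genes, so its value is not free of that choice. With 1 caffeine array and 2 actinomycin D arrays in each line, a failure to pass does not show that a difference stayed the same.

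Inside the high line, the treatments could be set against each other as values with no test. Among the leading probe sets, after caffeine 0 of 5 high in LNCaP were past 1 (6.36% of the detected probe sets lay higher, 5.24% lower), and in 22Rv1 1 of 3 was lower and 0 higher (7.79% lower and 9.23% higher). After actinomycin D alone against caffeine 1 of 5 in LNCaP was lower (11.0% lower, 10.1% higher) and 1 of 3 in 22Rv1 (9.39% lower, 6.06% higher). After actinomycin D with caffeine against caffeine 2 of 5 in LNCaP were lower (9.33% lower, 8.03% higher) and 1 of 3 in 22Rv1 (6.33% lower, 3.94% higher). Between the arrays with actinomycin D, the one with caffeine was lower in 1 of 5 in LNCaP (6.78% lower, 5.29% higher) and past 1 in 0 of 3 in 22Rv1 (2.00% lower, 3.74% higher). None of the 8 leading probe sets was higher by more than 1 in any of these, and those lower were of RGS2, PEG3, MME and UCP2. For RGS2 in 22Rv1 the difference of caffeine to untreated was -0.04, that of actinomycin D alone to caffeine was -3.52, that of actinomycin D with caffeine to caffeine was -2.66, and keeping caffeine in the second step gave a signal higher by 0.86 than actinomycin D alone. Both second-step values of RGS2 were thus below its caffeine value, the lower one without caffeine. PEG3 in LNCaP went the other way with respect to the second caffeine step. It was -1.40 after actinomycin D alone and -2.57 after actinomycin D with caffeine, each against caffeine, so that the array with caffeine was lower than the array without by 1.17. MME was -0.40 after actinomycin D alone and -1.20 after actinomycin D with caffeine, and here too the array with the high 18S signal gave the lower value.

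UCP2 in 22Rv1 was the member that was lower after caffeine, with a difference of -1.24, and its actinomycin D arrays differed from caffeine by 0.06 each. TIMP1 in 22Rv1 and ACKR3, GCG and ATP11A in LNCaP differed from caffeine by -0.15 to 0.39 after either actinomycin D treatment. These signals are relative to the other transcripts on the array. The 24 poly-A control probe sets, spiked into the RNA, were higher after actinomycin D alone than after caffeine by 1.53 in LNCaP and 1.18 in 22Rv1, so on that scale all 8 genes were lower by more than 1 after actinomycin D alone. That scale moved the line differences less, changing the treated minus untreated difference by -0.05 after caffeine, -0.42 after actinomycin D with caffeine and -0.40 after actinomycin D alone. On it the line difference after actinomycin D alone was narrower by 0.74 for UCP2 and by 1.37 for MME. UCP2 was then no longer past 1, and MME was.

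In the low line the leading probe sets stayed down. On the 3 treated arrays 0 of 8 reached 4, the highest value was 3.90 for PEG3 in 22Rv1 after actinomycin D with caffeine, and the largest change from untreated was 0.56, in the same gene. For comparison, 255 probe sets were under 4 in one untreated line and at 8 or more in the other, 173 of them low in LNCaP and 82 low in 22Rv1. Of these, 8.63% reached 4 in the low line after caffeine, 16.1% after actinomycin D with caffeine and 18.0% after actinomycin D alone. The count of 0 of 8 is given beside these shares and not as a result about the members, and a signal under 4 does not show that the transcript was absent. Fewer cells with a transcript and less of it in each cell cannot be told apart in RNA of whole cultures.

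The second probe sets of 5 genes did not all follow the leading one. UCP2 208997_s_at in 22Rv1 was at 10.70, 9.06, 9.01 and 9.51, lower after caffeine by -1.63, and in LNCaP it went from 3.17 after caffeine to 4.81 after actinomycin D alone, past the detection limit. Its line difference after the treatments was -5.50 ± 0.30 (SE, limma, adjusted p = 0.000384), in the direction of the leading probe set. The p values of the second probe sets, here and for MME and ATP11A, come from genes chosen for this difference. They too are a description and carry no weight as support. MME 203435_s_at in LNCaP was at 9.19, 9.09, 9.14 and 9.53, without the low value on the array with actinomycin D and caffeine, and in 22Rv1 it was at 3.54, 3.79, 3.85 and 4.06. It was higher in LNCaP by 5.35 ± 0.16 (SE, limma, adjusted p = 0.000141).

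ATP11A had 6 probe sets, of which 241603_at and 241604_at were under 4 on all arrays. In LNCaP 216488_s_at was at 8.44, 7.97, 8.18 and 9.43, higher after actinomycin D alone, and 213582_at was at 6.90, 5.56, 4.80 and 5.57, lower on all treated arrays. Both were under 3 in 22Rv1 and higher in LNCaP over the treated pairs, by 5.76 (limma, adjusted p = 0.000471) and 2.59 (limma, adjusted p = 0.00129). The weakest, 215842_s_at, was at 4.42, 4.81, 4.98 and 6.81 in LNCaP and at 3.95, 3.92, 4.48 and 3.98 in 22Rv1, a difference of 1.41 that did not pass (limma, adjusted p = 0.0653). The 3 detected probe sets beside the leading one therefore differed in how they went with actinomycin D. All 3 were higher in LNCaP under each treatment, though 215842_s_at did not pass the test.

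PEG3 209243_s_at ran opposite to its leading probe set. In LNCaP it was at 3.99 untreated, 2.87 after caffeine, 5.62 after actinomycin D with caffeine and 6.19 after actinomycin D alone, while in 22Rv1 all 4 arrays were at 2.27. The 2 actinomycin D arrays, low for 209242_at, were the high ones here, so the drop of PEG3 rests on 1 of its 2 probe sets. ACKR3 232746_at was at 5.82, 5.47, 4.15 and 2.66 in LNCaP and at 2.28, 2.37, 2.28 and 2.35 in 22Rv1, lowest with actinomycin D alone, where the leading 212977_at stayed level. Its line difference was 0.31 after actinomycin D alone, when both lines were under 4, and ACKR3 1559114_a_at was under 4 on all arrays. Neither 209243_s_at nor 232746_at passed the filter on mean signal, so they were not tested.

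**Figure D3:**
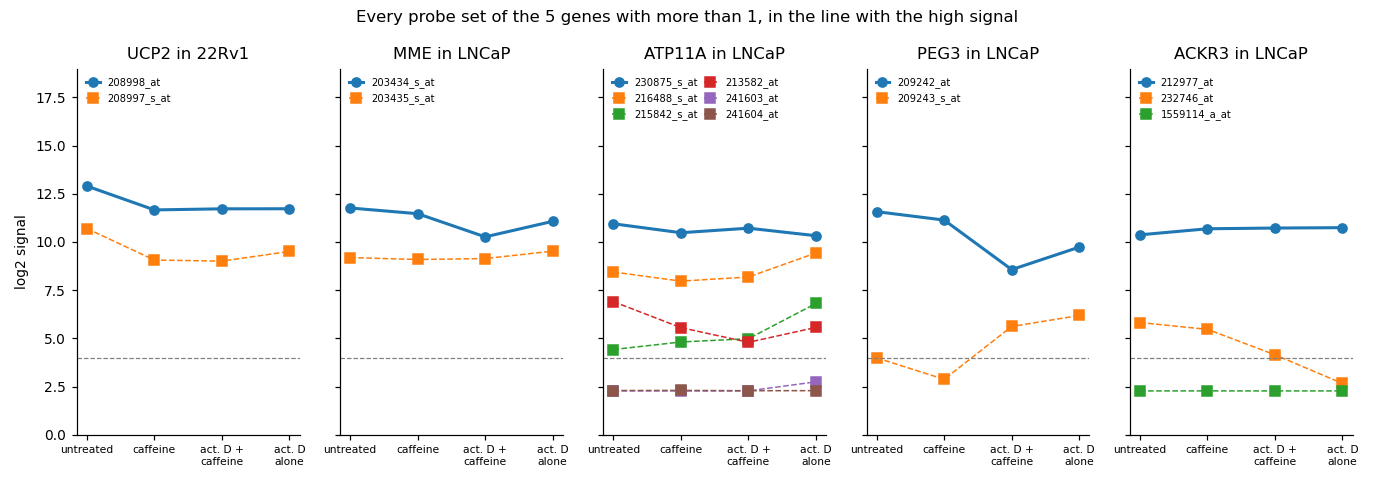
Log2 signal (vertical axis) of every probe set of UCP2 in 22Rv1 and of MME, ATP11A, PEG3 and ACKR3 in LNCaP by treatment (horizontal axis), the leading probe set as a thick solid line and the others dashed, 1 array per point, with a dashed grey line at 4. The 2 probe sets of PEG3 cross in direction after caffeine, one going from 11.14 to 9.73 and the other from 2.87 to 6.19 with actinomycin D alone.

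The genes whose profile over the 8 arrays was most like a member were in large part other members, as the choice by size implies. Likeness was taken as the root mean square distance between log2 profiles, each centred on its own mean. ACKR3 and GCG were 0.24 apart, ATP11A and GCG 0.26, ATP11A and ACKR3 0.27, and UCP2 and TIMP1 0.38. RGS2 and PEG3 had the most distant nearest genes. For RGS2 it was KRT19, a keratin, at 0.96, which in 22Rv1 was at 12.87, 12.38, 12.41 and 11.18. For PEG3 it was TNFRSF19, a receptor of the tumour necrosis factor family, at 0.59, and its LNCaP values were 10.39, 10.04, 6.40 and 7.83, so TNFRSF19 too was low on both actinomycin D arrays and lowest with caffeine.

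For each member the 2 nearest genes on each side that had a probe set with a single symbol were taken, 32 in all. Genes without such a probe set were passed over, so next to and beside refer to this order. The 32 genes were read from the same arrays to see whether a line difference ran on into its neighbours. Of these 17 were under 4 on all arrays, among them RGS1 and RGS13 beside RGS2, SYN1 and CFP near TIMP1, USP29 near PEG3, GBX2 near ACKR3, and FAP near GCG. Of the 13 that were tested, 6 differed between the lines over the treated pairs, where 47.7% of all probe sets did. All 6 were higher in LNCaP (24.3% of all probe sets) and 0 were lower (23.4%). The 5 of the 6 that went in the direction of their member were thus those near members high in LNCaP. MCF2L, a guanine nucleotide exchange factor gene beyond the antisense gene of ATP11A, came closest to its member. It was at 8.72, 7.81, 8.15 and 8.17 in LNCaP and at 2.32 to 2.34 in 22Rv1, with a difference of 5.71 ± 0.17 (SE, limma, adjusted p = 0.000141).

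IFIH1, a sensor of double-stranded RNA near GCG, was at 8.04, 7.57, 6.77 and 8.17 in LNCaP and at 3.75, 3.49, 3.39 and 3.56 in 22Rv1, a difference of 4.02 (limma, adjusted p = 0.000685). ARHGEF26, an exchange factor gene near MME, was higher in LNCaP by 3.10 (limma, adjusted p = 0.00302), and DHX36, a helicase gene next to MME, by 1.83 with its leading probe set (limma, adjusted p = 0.00291) and by 4.04 and 3.47 with 223139_s_at and 223138_s_at (limma, adjusted p = 0.00074 and 0.0039). TUBGCP3, a gamma-tubulin complex gene next to ATP11A, was higher by 1.76 (limma, adjusted p = 0.0051), though its other probe sets were at 0.06 and 0.07. PAAF1 near UCP2 was higher in LNCaP by 0.60 (limma, adjusted p = 0.0416), opposite to UCP2. By their leading probe sets, the neighbours that differed in the direction of their member were all near genes high in LNCaP, and several others did not pass, with a difference of -0.08 for COPS8 near ACKR3, -0.15 and -0.33 for ARAF and ELK1 near TIMP1, and -0.02 for DPP4, a peptidase gene next to GCG. Another probe set of DPP4, 203717_at, was lower in LNCaP at -0.93 (limma, adjusted p = 0.0098), opposite to GCG. UCHL5 and RO60 near RGS2 had 0.35 and 0.57 and did not pass with their leading probe sets, while other probe sets of both, 229248_at at -2.03 (limma, adjusted p = 0.00297) and 213027_at at -2.30 (limma, adjusted p = 0.00301), were lower in LNCaP. PEG3-AS1, an antisense gene of PEG3, was at 3.83, 4.80, 4.65 and 4.52 in LNCaP and at 2.50 to 3.06 in 22Rv1, and was too low to be tested. Copy number and chromatin of these regions were not analysed here.

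**Figure D4:**
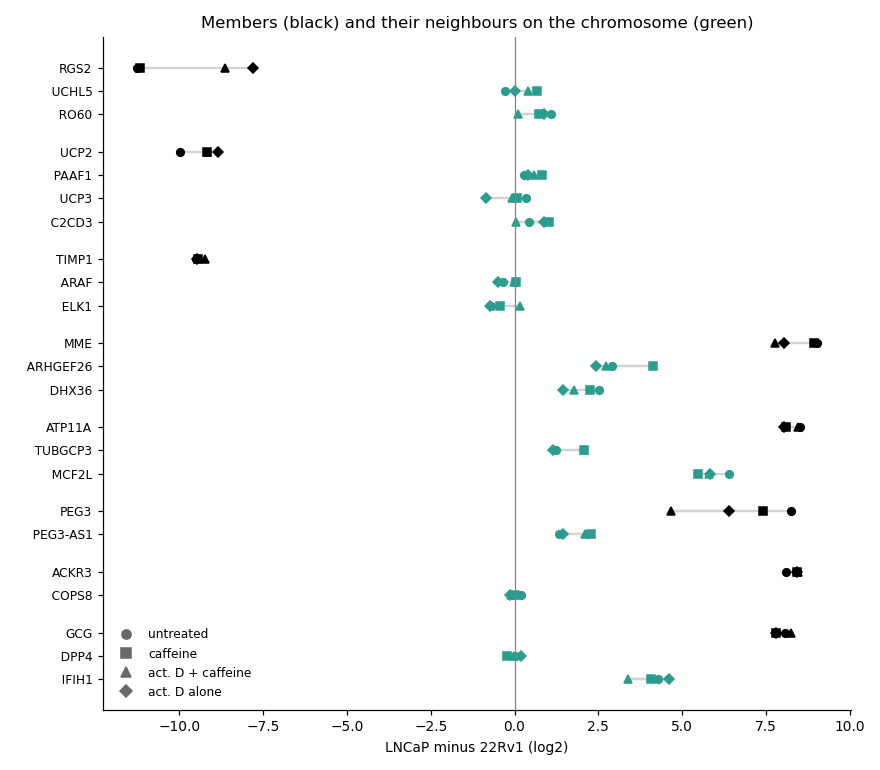
LNCaP minus 22Rv1 difference in log2 units (horizontal axis) of the members (black) and, under each, its detected neighbours (green), with 1 symbol for each of the 4 treatments. MCF2L under ATP11A and IFIH1 under GCG lie to the right with their members, and the leading probe sets of DPP4, COPS8, ARAF and ELK1 lie near 0.

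The relatives of the members in their families and pathways were read from lists. Of 106 other genes on 8 lists, 98 had a probe set, 48 were under 4 on all arrays, and 39 were tested, of which 11 were higher and 16 were lower in LNCaP, beside 24.3% and 23.4% over all probe sets tested. The median size of the difference over the 39 was 1.28, against 0.67 over all probe sets tested. Of 19 other RGS genes measured, 10 were under 4 on all arrays and 5 were tested, with RGS3 higher in LNCaP by 1.36 (limma, adjusted p = 0.0045), RGS10 higher by 2.34, and RGS11 lower by -4.24 (limma, adjusted p = 0.0012), the direction of RGS2. For ACKR3 no partner was tested, since CXCL11, CXCL12, CXCR3, ACKR1, ACKR2 and ACKR4 were under 4 on all arrays and CXCR4 reached 4.01 on the untreated 22Rv1 array only. Of 14 measured genes of glucagon peptides, their receptors and processing, 7 were under 4, and of 4 tested FOXA1, which encodes a factor that opens chromatin in prostate and endoderm, was higher in LNCaP by 1.06 (limma, adjusted p = 0.048). That mean joins a difference of 0.17 after caffeine, and 0.09 in untreated cells, with 1.44 and 1.58 after actinomycin D with caffeine and alone.

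Of 17 TIMP and metalloprotease genes, 9 were under 4, and of 6 tested 3 were higher and 2 lower in LNCaP. TIMP2 was higher by 1.38 (limma, adjusted p = 0.043), opposite to TIMP1. That mean joins 1.78 after caffeine and 2.14 after actinomycin D alone with 0.21 after actinomycin D with caffeine. The proteases MMP15 and ADAM10 were higher by 1.08 (0.21 after caffeine, 1.80 and 1.23 with actinomycin D) and 1.07, with MMP16 lower at -2.03 and ADAM17 lower at -1.28. In the neprilysin family, 3 of 6 were tested, and ECE2 was higher by 1.26 (limma, adjusted p = 0.015) and ECE1 lower at -1.23 (limma, adjusted p = 0.0066), both being endothelin-converting enzymes. Of the other uncoupling carriers, SLC25A27 was lower in LNCaP at -2.17 (limma, adjusted p = 0.0055), in the direction of UCP2, and UCP3, the neighbour of UCP2, was between 3.37 and 4.39.

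Of 9 genes of flippases and their partner subunits tested, 2 were higher and 4 lower in LNCaP, the 4 being ATP8A1, ATP8B2 and the partner subunits TMEM30A and TMEM30B. TMEM30B was lower at -5.09 (limma, adjusted p = 0.00016), and TMEM30A, the common partner, was lower at -2.41. ATP8A1 was lower at -2.43, and ATP10A was higher by 1.93. Imprinted genes had the largest median size of the lists, 3.01, with 9 of 10 tested past the threshold (47.7% over all probe sets), 2 higher and 7 lower in LNCaP. SGCE and PEG10, which lie side by side, were lower in LNCaP at -5.78 (limma, adjusted p = 0.00014) and -4.04, and CDKN1C was lower at -4.39. GRB10 was higher by 5.17 (limma, adjusted p = 0.00019) and NDN by 3.08 (limma, adjusted p = 0.0011), in the direction of PEG3. The imprinted genes thus did not go one way with PEG3.

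**Figure D5:**
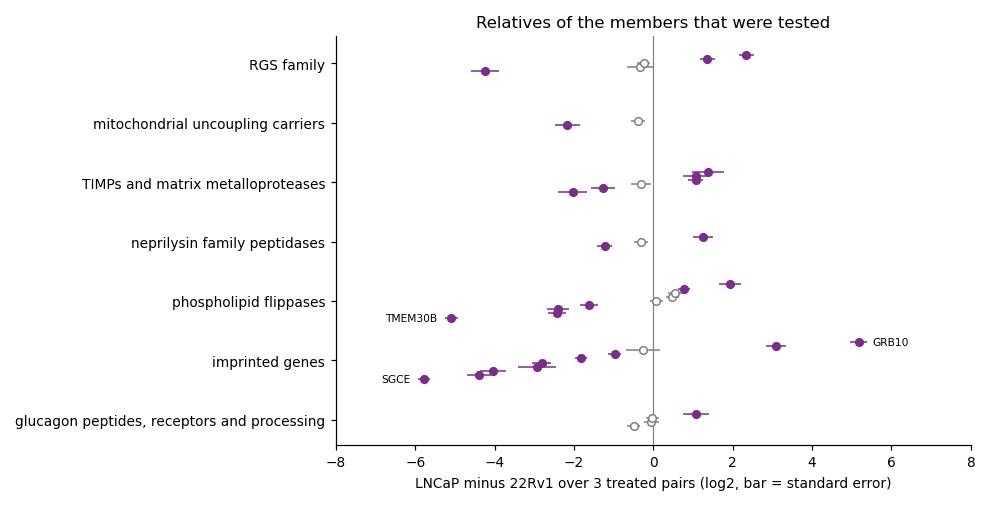
LNCaP minus 22Rv1 difference over the 3 treated pairs (horizontal axis, log2, bars are standard errors from limma) of each tested relative, by list (vertical axis), filled where the adjusted p was under 0.05. The longest distances from 0 are SGCE (-5.78), TMEM30B (-5.09) and GRB10 (5.17), and 7 of the 9 filled imprinted genes lie to the left.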

How the data were processed

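Total RNA of LNCaP and 22Rv1 cells was hybridized to 8 Affymetrix U133 Plus 2.0 arrays, 1 for each line and treatment. The authors deposited log2 signals of 54675 probe sets, background corrected, quantile normalized and summarised with gcRMA. RMA and GCRMA are the tools listed in the submitters' processing notes, without versions. The number of arrays limits the precision. Genes were named from the platform annotation (41097 probe sets with 1 symbol, 1801 with several, 11777 with none), and a probe set shared by ZIM2 and PEG3 was not used. The members, lists and tests were chosen with earlier results of these data known. The genes named were all members, the 4 relatives of each list with the largest differences among those called, some other relatives, 2 neighbours on each side and the 3 nearest profiles.

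Line differences were tested with limma 3.58.1 in R 4.3.3 (lmFit, eBayes) over the 6 treated arrays with treatment as a term, and the change with actinomycin D as an interaction, both where the mean over those arrays was 4 or more (2 residual degrees of freedom) and with Benjamini-Hochberg adjustment over all of them. Treatments stand in for replicates there, so p values measure the spread over treatments. Untreated differences and responses within a line are differences between 2 arrays with no test, called past 1, over probe sets at 4 or more on an array used. Scripts were checked on simulated data. Alternatives changed the filter, variance model, floor, scaling on poly-A controls, probe set, threshold and arrays. Tables used Python 3.11.15 with numpy 2.4.6 and pandas 2.3.3.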

Additional observations from a re-analysis of the deposited data

How the results depend on the processing

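The line difference of the 8 leading probe sets over the treated arrays kept its direction under the 9 alternatives that use treated arrays only. The adjusted limma p values ran from 3.59e-07 to 0.0759, above 0.05 only for RGS2 and PEG3 with no filter on low signals. The treated arrays took part in picking the leading probe sets, which passed the filter through their high line only. The kept direction and these p values are therefore a description and carry no weight as support. The counts over all probe sets depended more on the settings. Against 5204 higher and 5009 lower in LNCaP, there were 1358 and 1636 with no filter, 7623 and 3224 when scaled on the poly-A controls, 3194 higher without the pair with actinomycin D and caffeine, and 3075 and 3168 without the pair with actinomycin D alone. The change with actinomycin D, 0 in either direction, was called for 518 higher and 417 lower with no filter, 96 and 71 when scaled on the poly-A controls, and 21 higher with all 8 arrays. The cause was not tested. No paired analysis was possible because each line and treatment has 1 array, so replicate numbers pair nothing beyond the treatment term, which already pairs the lines in the test of the line difference.

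Of the 8 genes with a change of the line difference past 1 after caffeine (0 by the leading probe sets), 1 was counted with signals under 4 set to 4 and 1 with the mean of the probe sets, UCP2 in both. Of responses past 1 in the high line, that to caffeine (1) became 0 on the poly-A scale and 0 at a threshold of 1.3, that of actinomycin D alone against caffeine (2) became 8 on the poly-A scale and 1 with the mean of the probe sets, that of actinomycin D with caffeine against caffeine (3) became 1 with the mean, and that of actinomycin D with against without caffeine (1) became 0 with the mean and 0 at 1.3. PEG3 reversed with its other probe set, 209243_s_at, in the change of the line difference (1.63 with caffeine, 2.20 alone) and in the LNCaP response to actinomycin D (2.74 with caffeine, 3.31 alone). With the mean of its 2 probe sets these were 0.18 for the change of the line difference with actinomycin D alone, and 0.087 and 0.95 for the responses. MME 203435_s_at gave 0.048 for actinomycin D with caffeine against caffeine. Low signals limit the low line to a bound, and 1 array for each line and treatment limits all differences within a line.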
